A study of Homo sapiens with 6 samples.

Results

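N6-methyladenosine (m6A) is the most common internal chemical mark of messenger RNA, and the genes described here are 10 factors that write, read or remove it. They are the writers METTL3, METTL14, WTAP and METTL16, the readers YTHDF1, YTHDF2, YTHDF3 and YTHDC1, and the erasers ALKBH5 and FTO. They were chosen by name from the 18806 gene symbols of the deposited expression table, and all 10 are listed there. All 10 also passed the filter on low values, a level of at least 1 TPM, the transcripts of a gene per 1000000 of all transcripts, in at least 2 libraries, as did 11151 genes in all.

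METTL3 is the catalytic subunit of the main nuclear methyltransferase, METTL14 is its partner in RNA binding, and WTAP holds the pair to nuclear speckles and to further subunits. The cytosolic YTHDF proteins bind the mark through a YTH domain, and YTHDF2 leads marked mRNA to the CCR4-NOT deadenylase, a complex that also binds DDX6. ALKBH5 and FTO are iron- and oxoglutarate-dependent demethylases, and both, like METTL3 and METTL14, have been studied as factors that acute myeloid leukemia (AML) cells depend on.

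The RNA came from Mono-mac-6, a human monocytic AML cell line with an MLL-AF9 fusion, and it was selected for poly(A) tails before sequencing. The groups were sgDDX6.1 and sgDDX6.2, cells given either of 2 guide RNAs against the RNA helicase DDX6, and sgNS, cells given a control guide. All were made from a single clone that expresses Cas9 by lentiviral delivery and selection with blasticidin and hygromycin B, so Cas9, the clone and the drug selection are shared by every group. Each group had 2 libraries, 6 in all, labelled as harvested 8 days after infection, although the series' design text gives a selection of 1 to 2 weeks. Whether the 2 libraries of a group are separate cultures is not stated, so a p-value here reflects the spread between libraries, possibly a technical one.

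DDX6 mRNA was lower in the cells given a guide against it, with 54.4 and 52.0 TPM in sgDDX6.1, 52.3 and 53.5 TPM in sgDDX6.2, and 102.1 and 99.5 TPM in sgNS, which parts the libraries as labelled (log2 fold change over both guides -0.91, SE 0.04, limma adjusted p = 4.61e-09). DDX6 protein was not measured here. Among 10 myelomonocytic markers, 6 were higher and 4 lower over both guides at a limma adjusted p under 0.05. Of all genes tested, 33.8% were higher and 32.9% lower by the same test. The summed level of the 10 markers was 14556 to 15792 TPM in sgDDX6 libraries and 10167 to 10655 TPM in sgNS libraries. That sum was mostly lysozyme (LYZ), at 13819 to 14945 TPM in sgDDX6 and 9531 to 10031 TPM in sgNS, while MPO (log2 fold change -1.23), FCGR1A (-0.59), CD14 (-0.49) and ITGAM (-0.34) fell. The monocyte marker CD14 was near absent, at 0.37 to 1.36 TPM over all 6 libraries. Markers of T cells, B cells, erythroid cells and fibroblasts each summed, list by list, to no more than 3.54 TPM in any library, and those of epithelial cells to 11.4 to 19.5 TPM in sgDDX6 and 20.9 to 21.1 TPM in sgNS. The part of these shifts in the differences below was not tested.

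The 10 m6A factors were expressed at moderate to high levels in every library. TPM is scaled by transcript length, so levels of different genes can be compared. YTHDF2 was the most abundant, at 184.9 to 203.0 TPM, above 92.4% of the genes tested. WTAP at 83.9 to 101.0 TPM and YTHDF1 at 75.6 to 95.9 TPM came next. Their ranges overlapped, although WTAP was the higher in 6 of 6 libraries. ALKBH5 (51.0 to 63.6 TPM), METTL3 (53.6 to 58.9 TPM) and YTHDF3 (51.1 to 59.0 TPM) could not be ordered beyond their spread. Below them YTHDC1 ranged over 44.1 to 50.3 TPM, METTL14 over 32.3 to 35.8 TPM, FTO over 21.2 to 25.3 TPM and METTL16 over 17.1 to 19.7 TPM, with no overlap between neighbours. No factor varied over the 6 libraries by more than the 1.27-fold of YTHDF1.

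**Figure D1:**
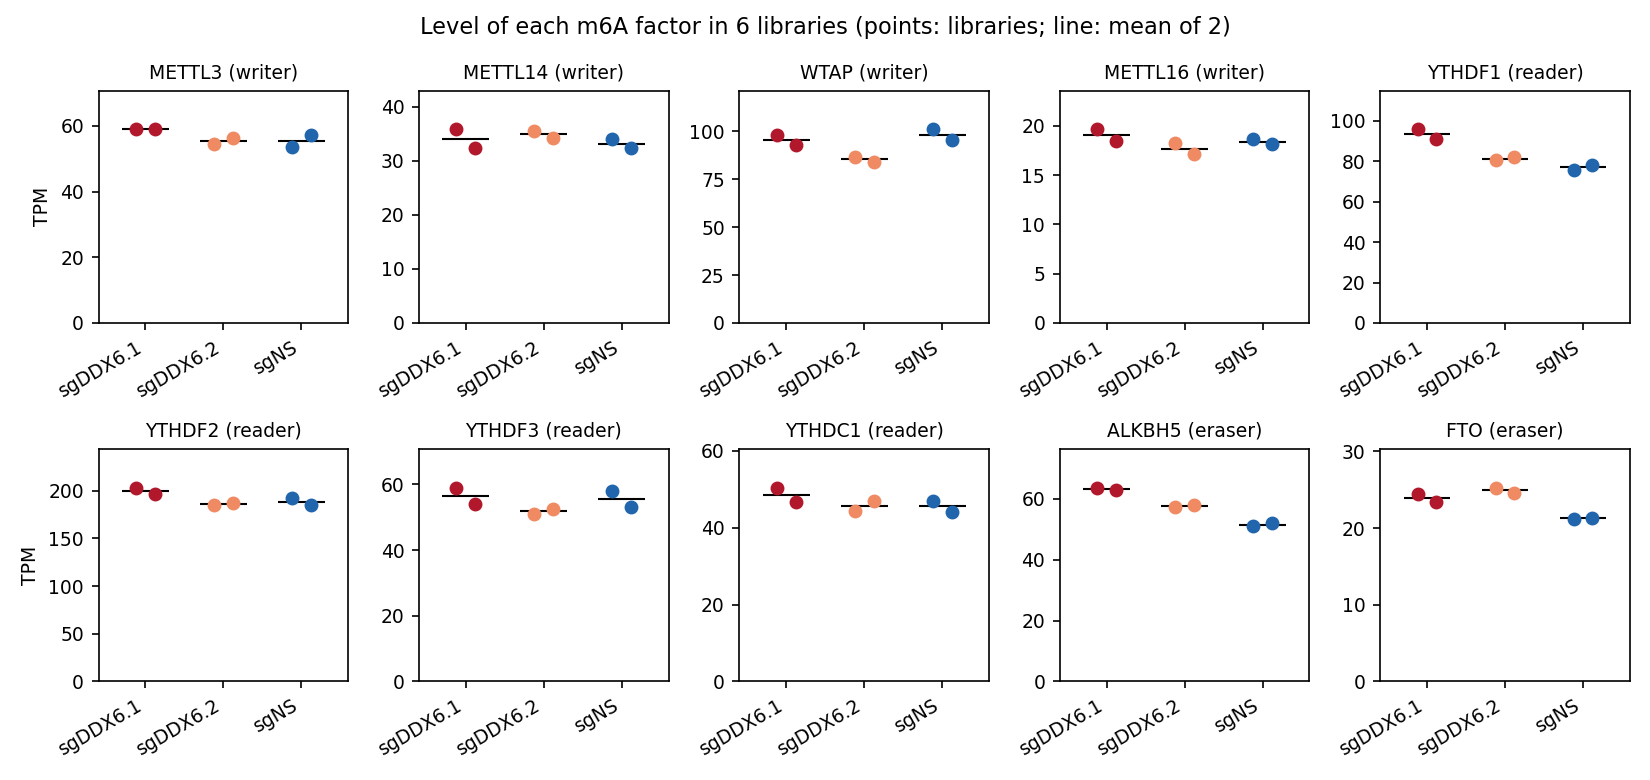
Level in TPM (vertical axes, from 0) of each of the 10 m6A factors in the 2 libraries each of sgDDX6.1, sgDDX6.2 and sgNS; points are libraries and lines the mean of 2. ALKBH5, FTO and YTHDF1 lie higher in all 4 sgDDX6 libraries than in both sgNS libraries, while the other 7 factors overlap between them.

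Averaged over both guides, the erasers ALKBH5 and FTO and the reader YTHDF1 rose, the writer subunit WTAP fell, and the other 6 factors did not pass the test. This is 4 of 10 at an adjusted p under 0.05 over both guides, 3 higher and 1 lower, beside 66.7% of all genes tested (33.8% higher and 32.9% lower). All 4 changes were small, between -0.12 and 0.22 on the log2 scale. Only ALKBH5 and FTO passed with each guide. YTHDF1 did not pass with sgDDX6.2 (limma adjusted p = 0.168), nor WTAP with sgDDX6.1 (limma adjusted p = 0.456). With the 4 sgDDX6 libraries as a single group, so that the guide difference counted as spread, 2 of the 10 were called. The count over all genes also moved, to between 5212 and 7859 over the alternative settings tried, in place of 7434. The median size of change over the 10 factors, regardless of direction, was 0.05, against 0.23 over all 11151 genes tested, and each of the 10 lay below that 0.23. Libraries of sgDDX6 and sgNS did not overlap for 3 of the 10, beside 63.4% of all genes. Fold changes here and below are differences of mean log2(TPM + 1), a scale that understates the change of low genes.

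Among the erasers, ALKBH5 had 63.6 and 62.7 TPM in sgDDX6.1, 57.2 and 57.8 TPM in sgDDX6.2, and 51.0 and 51.9 TPM in sgNS. The 3 groups did not overlap, with sgDDX6.1 the highest and sgNS the lowest. ALKBH5, on chromosome 17 (18183078 to 18209954, plus strand, GRCh38, GENCODE release 29), rose by 0.22 on the log2 scale over both guides (SE 0.04, 95% interval 0.14 to 0.31, limma adjusted p = 0.000419), which is 16.8% above sgNS. By guide, its log2 fold change was 0.29 for sgDDX6.1 (adjusted p = 0.000212) and 0.16 for sgDDX6.2 (adjusted p = 0.0109). The sgDDX6.2 call was lost without sgDDX6.2 replicate 1, sgDDX6.2 replicate 2 or sgNS replicate 1 (adjusted p = 0.0608, 0.0821 and 0.0634).

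FTO, the eraser that also removes the cap-adjacent mark m6Am, had 24.4 and 23.4 TPM in sgDDX6.1, 25.3 and 24.5 TPM in sgDDX6.2, and 21.2 and 21.4 TPM in sgNS. All 4 sgDDX6 libraries lay above both sgNS libraries, with sgDDX6.2 slightly above sgDDX6.1. FTO, on chromosome 16 (53701692 to 54158512, plus strand), rose by 0.19 over both guides (SE 0.05, interval 0.08 to 0.30, limma adjusted p = 0.00622), or 13.9%. Its log2 fold change was 0.16 with sgDDX6.1 (adjusted p = 0.0325) and 0.22 with sgDDX6.2 (adjusted p = 0.00685). The sgDDX6.1 call was lost without any of sgDDX6.1 replicate 1, sgDDX6.2 replicate 1, sgDDX6.2 replicate 2, sgNS replicate 1 or sgNS replicate 2 (adjusted p = 0.105, 0.0594, 0.059, 0.107 and 0.0879) and with only sgDDX6.1 and sgNS fitted (0.0607), and the sgDDX6.2 call without sgDDX6.2 replicate 1 (adjusted p = 0.0641). Together the erasers summed to 82.3 to 88.0 TPM in sgDDX6 libraries and 72.2 to 73.3 TPM in sgNS libraries.

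The DNA before the RefSeq start sites of the 3 genes that rose over both guides is shown so that these genes can be compared. Each run below is the 250 bases before the transcript start in RefSeq (GRCh38.p14), read 5′ to 3′ on the strand of the gene, at chr17:18183578-18183827 (plus strand) for ALKBH5, chr16:53703906-53704155 (plus strand) for FTO and chr20:63216132-63216381 (minus strand) for YTHDF1. The GENCODE spans given here start earlier than RefSeq, so the FTO and ALKBH5 windows lie inside those spans and the YTHDF1 window lies partly inside. Capitals mark matches, on either strand, to any of 6 motifs, which are the GC box GGGCGG, the CCAAT box CCAAT, the TATA box TATAAA, the E-box CACGTG, the ETS core CCGGAAG and the palindrome of NRF1.
ALKBH5: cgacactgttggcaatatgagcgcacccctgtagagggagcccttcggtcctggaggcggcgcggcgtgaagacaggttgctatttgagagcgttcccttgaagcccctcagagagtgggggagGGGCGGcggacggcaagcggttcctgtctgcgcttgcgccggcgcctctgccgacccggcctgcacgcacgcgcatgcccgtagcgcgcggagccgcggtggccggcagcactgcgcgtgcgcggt
FTO: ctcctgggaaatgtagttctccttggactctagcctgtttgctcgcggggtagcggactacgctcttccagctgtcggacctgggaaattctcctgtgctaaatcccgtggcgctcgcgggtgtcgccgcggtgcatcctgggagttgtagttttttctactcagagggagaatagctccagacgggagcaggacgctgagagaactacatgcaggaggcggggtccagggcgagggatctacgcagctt
YTHDF1: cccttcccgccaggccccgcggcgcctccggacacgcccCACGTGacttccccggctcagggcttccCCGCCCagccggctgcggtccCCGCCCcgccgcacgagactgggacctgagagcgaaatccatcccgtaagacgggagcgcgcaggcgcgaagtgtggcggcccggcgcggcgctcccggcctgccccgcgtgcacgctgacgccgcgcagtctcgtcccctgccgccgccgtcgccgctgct
ALKBH5 held 1 GC box, YTHDF1 held 2 GC boxes and 1 E-box, and FTO held none of the 6, so no motif searched was in all 3 windows. Among 35116 RefSeq promoters of the same length, 42.6% held a GC box, 32% a CCAAT box, 10.7% a TATA box, 6.34% an E-box, 8.52% the ETS core and 1.03% the NRF1 palindrome. A match is a description of letters and no evidence of binding. Of the 10 factors, 9 had an entry in this table, with 11 start sites in all, of which 7 held a GC box, 4 a CCAAT box, 2 the ETS core, 1 a TATA box and 1 an E-box.

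Among the readers, YTHDF1 rose, and this came mainly from the sgDDX6.1 libraries. YTHDF1, a cytosolic reader studied for promoting translation of marked mRNA, had 95.9 and 90.9 TPM in sgDDX6.1, 80.6 and 82.1 TPM in sgDDX6.2, and 75.6 and 78.4 TPM in sgNS. The groups did not overlap, but sgDDX6.2 lay much closer to sgNS than sgDDX6.1 did. YTHDF1, on chromosome 20 (63195429 to 63216234, minus strand), had a log2 fold change of 0.18 over both guides (SE 0.04, interval 0.09 to 0.27, limma adjusted p = 0.00239). With sgDDX6.1 it rose by 0.27 (SE 0.05, adjusted p = 0.000351), and with sgDDX6.2 it had 0.08 (interval -0.03 to 0.18, adjusted p = 0.168) and did not pass the test. When the 4 sgDDX6 libraries were fitted as a single group, so that the difference between the guides counted as spread, the call was lost at the same fold change (adjusted p = 0.103).

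The other readers were nearly level. YTHDF2, which recruits the CCR4-NOT deadenylase, had 203.0 and 195.9 TPM in sgDDX6.1, 184.9 and 187.2 TPM in sgDDX6.2, and 191.8 and 185.0 TPM in sgNS. The sgNS libraries overlapped with those of sgDDX6.2 and lay below those of sgDDX6.1. YTHDF2 (chromosome 1, 28736621 to 28769775, plus strand) had a log2 fold change of 0.03 over both guides (SE 0.03, interval -0.04 to 0.11, limma adjusted p = 0.433).

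YTHDF3, the third cytosolic paralog (chromosome 8, 63168553 to 63212786, plus strand), had 59.0 and 54.0 TPM in sgDDX6.1, 51.1 and 52.6 TPM in sgDDX6.2, and 57.9 and 53.1 TPM in sgNS. The nuclear reader YTHDC1, which acts in splicing and export of marked RNA (chromosome 4, 68310387 to 68350089, minus strand), had 50.3 and 46.6 TPM in sgDDX6.1, 44.4 and 46.8 TPM in sgDDX6.2, and 46.8 and 44.1 TPM in sgNS. Both sgDDX6.2 libraries lay below sgNS for YTHDF3, sgDDX6.1 overlapped with sgNS for YTHDF3, and for YTHDC1 both guides overlapped with it. Their log2 fold changes over both guides were -0.04 (interval -0.15 to 0.08, limma adjusted p = 0.565) for YTHDF3 and 0.05 (interval -0.06 to 0.16, limma adjusted p = 0.435) for YTHDC1.

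Within each library, YTHDF2 held most of the summed TPM of the 3 cytosolic paralogs. Its share was 56.7% and 57.5% in sgDDX6.1, 58.4% and 58.2% in sgDDX6.2, and 59.0% and 58.4% in sgNS. All 4 sgDDX6 libraries lay below both sgNS libraries, the nearest pair differing only in the second decimal (58.41% in sgDDX6.2 and 58.44% in sgNS). The mean difference was -1.01 percentage points, with a two-sided exact permutation p of 0.133 over all 15 label assignments, the smallest possible being 0.0667. It was -1.59 points with sgDDX6.1 alone, -0.42 with sgDDX6.2 alone, and -1.76 under quantile normalization (exact permutation p = 0.0667). The share of YTHDF1 was 26.8% and 26.7% in sgDDX6.1, 25.4% and 25.5% in sgDDX6.2, and 23.3% and 24.8% in sgNS.

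Among the writers, WTAP fell, and this came from sgDDX6.2. WTAP had 97.8 and 92.8 TPM in sgDDX6.1, 86.6 and 83.9 TPM in sgDDX6.2, and 101.0 and 95.4 TPM in sgNS. The sgDDX6.2 libraries were the lowest, while those of sgDDX6.1 overlapped with sgNS. WTAP, on chromosome 6 (159725585 to 159756319, plus strand), fell by 0.20 with sgDDX6.2 (SE 0.05, interval -0.31 to -0.09, limma adjusted p = 0.00343), a change of -13.02%, and had -0.04 with sgDDX6.1 (interval -0.15 to 0.06, adjusted p = 0.456). Over both guides the log2 fold change was -0.12 (SE 0.04, limma adjusted p = 0.0228), and this call was lost without sgDDX6.1 replicate 2, sgDDX6.2 replicate 2 or sgNS replicate 1 (adjusted p = 0.0533, 0.0778 and 0.224), without the variance trend (0.0616) and with the 4 sgDDX6 libraries as a single group (0.196). In GENCODE, WTAP overlaps the mitochondrial superoxide dismutase gene SOD2 on the opposite strand, and no strand setting of the counting is given in the sources used here. SOD2 rose by 0.41 over both guides (limma adjusted p = 1.74e-05), with 36.6 and 39.9 TPM in sgDDX6.1, 39.5 and 39.9 TPM in sgDDX6.2, and 28.9 and 29.1 TPM in sgNS. Its part in the WTAP values was not tested. Opposite-strand overlaps are also annotated for METTL3 (TOX4), FTO (RPGRIP1L), MAT2A (GGCX) and ALKBH5 (an antisense gene). RPGRIP1L had 0.83 to 1.02 TPM in sgDDX6 libraries and 0.60 to 0.68 TPM in sgNS libraries, while the levels of TOX4 and GGCX overlapped between them. The part of these genes in the values was not tested either.

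The catalytic pair did not pass the test. METTL3 (chromosome 14, 21498133 to 21511375, minus strand) had 58.9 and 58.9 TPM in sgDDX6.1, 54.6 and 56.2 TPM in sgDDX6.2, and 53.6 and 57.2 TPM in sgNS. METTL14 (chromosome 4, 118685368 to 118715433, plus strand) had 35.8 and 32.3 TPM in sgDDX6.1, 35.5 and 34.2 TPM in sgDDX6.2, and 33.9 and 32.3 TPM in sgNS. METTL3 was higher in both sgDDX6.1 libraries, and METTL14 in both sgDDX6.2 libraries, than in sgNS, while the other guide overlapped with sgNS in each case. Over both guides the log2 fold changes were 0.04 (interval -0.05 to 0.14, limma adjusted p = 0.389) for METTL3 and 0.06 (interval -0.06 to 0.17, limma adjusted p = 0.384) for METTL14. The ratio of METTL3 to METTL14, which encode a heterodimer, was 1.65 and 1.83 in sgDDX6.1, 1.54 and 1.64 in sgDDX6.2, and 1.58 and 1.77 in sgNS. Replicates differed in it as much as groups did (mean difference -0.01 on the log2 scale, two-sided exact permutation p = 1 over 15 assignments). In each group the ratio was lower in replicate 1 than in replicate 2, and this test did not pair them.

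METTL16, a separate methyltransferase (chromosome 17, 2405562 to 2511891, minus strand), had the smallest difference of the 10 over both guides. It had 19.7 and 18.4 TPM in sgDDX6.1, 18.2 and 17.1 TPM in sgDDX6.2, and 18.7 and 18.1 TPM in sgNS. Over both guides its log2 fold change was -0.0049 (SE 0.06, interval -0.13 to 0.12, limma adjusted p = 0.944). METTL16 is known for methylating hairpins in the 3′ UTR of MAT2A, which encodes the enzyme that makes S-adenosylmethionine, the methyl donor of all these writers. The sites are shown because they tie a writer to a transcript measured in the same libraries. Below are all matches to TACAGAGAA or TACAGAAAA in the longest MAT2A transcript of GENCODE release 29, each with 10 bases on both sides, 5′ to 3′, with the 9 matched letters in capitals (chromosome 2, plus strand, between 85543802 and 85545140).
MAT2A site 1: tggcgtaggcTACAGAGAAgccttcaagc
MAT2A site 2: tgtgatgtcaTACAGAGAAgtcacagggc
MAT2A site 3: ctggtgtagcTACAGAGAAaccagcttcc
MAT2A site 4: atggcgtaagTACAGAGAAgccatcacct
MAT2A site 5: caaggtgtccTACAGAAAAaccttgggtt
MAT2A site 6: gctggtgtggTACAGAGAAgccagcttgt
All 6 lay in the 1508 bases of the 3′ UTR, 5 with TACAGAGAA and 1, at site 5, with TACAGAAAA. Of 19669 genes with a protein-coding transcript, 7.71% held either set of letters in the longest one, and 2, MAT2A included, held 6 or more. MAT2A had 532 and 515 TPM in sgDDX6.1, 475 and 478 TPM in sgDDX6.2, and 557 and 577 TPM in sgNS, so that all 4 sgDDX6 libraries lay below both sgNS libraries. MAT2A fell by 0.18 on the log2 scale over both guides (SE 0.03, limma adjusted p = 0.000294) beside a METTL16 level that did not pass the test. That size lay below the median of 0.23 over all genes tested. Of all genes, 66.7% were called and 63.4% had sgDDX6 and sgNS libraries that did not overlap. Methylation of these sites was not measured.

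Taken by guide, the calls differed in part. With sgDDX6.1, 3 of the 10 factors passed, all higher (YTHDF1, ALKBH5 and FTO), beside 61.6% of all genes tested (31.8% higher and 29.7% lower). With sgDDX6.2, 3 passed, ALKBH5 and FTO higher and WTAP lower, beside 64.2% (31.5% higher and 32.7% lower). Libraries did not overlap with sgNS for 5 factors with sgDDX6.1, beside 79% of all genes, and for 6 with sgDDX6.2, beside 83.1%. These comparisons share the sgNS libraries. The guides themselves differed for 3 of the 10, beside 35.6% of all genes (17% higher and 18.6% lower), and all 3 were lower with sgDDX6.2 than with sgDDX6.1. Libraries of the 2 guides did not overlap for 8 of the 10, of which FTO was the one higher with sgDDX6.2, beside 69.1% of all genes. The difference was -0.20 for YTHDF1 (SE 0.05, limma adjusted p = 0.0078), -0.16 for WTAP (SE 0.05, limma adjusted p = 0.0267) and -0.13 for ALKBH5 (SE 0.05, limma adjusted p = 0.0439). The median difference over the 10 factors was -0.10, against -0.02 over all genes. FTO was the only eraser not to differ by this test, with 0.06 (interval -0.07 to 0.18, limma adjusted p = 0.49).

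These differences between the guides depended on single libraries and, for WTAP and ALKBH5, on the processing. That of YTHDF1 was lost without sgDDX6.1 replicate 1 or sgDDX6.2 replicate 1 (adjusted p = 0.0519 and 0.0717). That of WTAP was lost without sgDDX6.1 replicate 1, sgDDX6.2 replicate 1 or sgDDX6.2 replicate 2 (adjusted p = 0.138, 0.0784 and 0.178), and that of ALKBH5 without any one of the 6 libraries (adjusted p between 0.0525 and 0.218). WTAP was also lost with no filter (0.0611), under quantile normalization (0.0589) and without the variance trend (0.0743). ALKBH5 was also lost under quantile normalization (0.0922), median centring (0.0546), without the variance trend (0.0729) and with only the 2 groups fitted (0.0509), and so under 10 of 16 alternatives. DDX6 itself did not separate the guides (difference -0.01, limma adjusted p = 0.918).

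**Figure D2:**
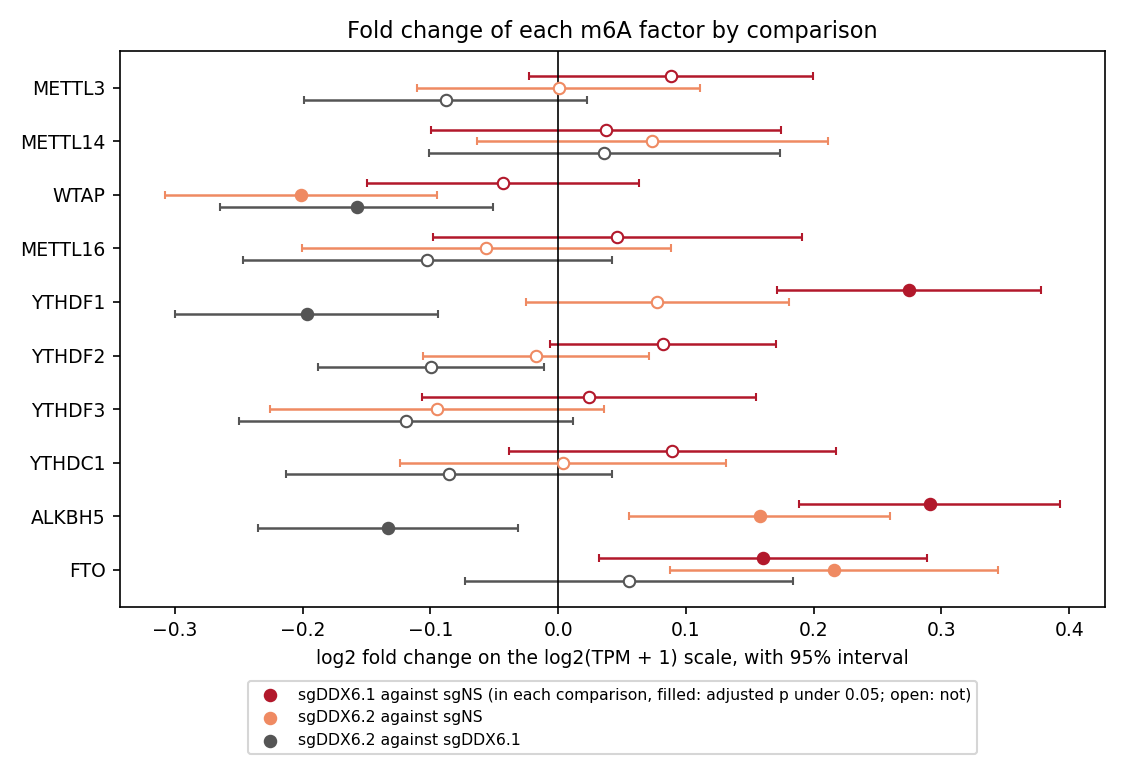
Log2 fold change on the log2(TPM + 1) scale (horizontal axis) with its 95% interval for each of the 10 m6A factors, for sgDDX6.1 against sgNS, sgDDX6.2 against sgNS and sgDDX6.2 against sgDDX6.1; filled points passed an adjusted p of 0.05 and open points did not. ALKBH5 and FTO are filled for both guides against sgNS, YTHDF1 for sgDDX6.1 only (0.27, against 0.08 for sgDDX6.2) and WTAP for sgDDX6.2 only (-0.20, against -0.04 for sgDDX6.1), and YTHDF1, WTAP and ALKBH5 are filled for sgDDX6.2 against sgDDX6.1.

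Other genes of the m6A machinery changed in both directions. Over 5 lists of further writer subunits, other N6 methyltransferases, other readers, partners of readers and methyl donor enzymes, 27 of 28 genes were tested, and 6 rose and 13 fell over both guides, a share called (19 of 27) near the 66.7% of all genes (33.8% higher and 32.9% lower). They had a median log2 fold change of -0.04 and a median size of 0.18, against 0.05 over the 10 factors and 0.23 over all genes. IGF2BP1 was listed at 0.02 TPM or less in every library and was not tested.

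Of the 5 other subunits of the writer complex, 2 rose and 1 fell, which is 3 of 5 called beside 66.7% of all genes. With so few genes a list, this count and those of the lists below are descriptions and set no list apart from that background. VIRMA, the scaffold that directs methylation toward the ends of mRNAs and is listed under its older symbol KIAA1429, had 61.0 and 56.9 TPM in sgDDX6.1, 54.8 and 54.0 TPM in sgDDX6.2, and 46.9 and 44.6 TPM in sgNS (log2 fold change 0.30, limma adjusted p = 0.000121). CBLL1, the E3 ligase subunit also named HAKAI, had 40.5 and 37.4 TPM in sgDDX6.1, 32.2 and 33.0 TPM in sgDDX6.2, and 47.2 and 46.1 TPM in sgNS (-0.38, limma adjusted p = 2.91e-05). For both genes the sgDDX6 and sgNS libraries did not overlap, so subunits of one complex lay on opposite sides of sgNS. Of the related adaptors, RBM15B had 0.17 over both guides (limma adjusted p = 0.00715) and RBM15 had 0.07 (limma adjusted p = 0.28). The RBM15B call was lost without sgNS replicate 1 and with the 4 sgDDX6 libraries as a single group (limma adjusted p = 0.176). By guide, RBM15B had 0.30 with sgDDX6.1 (limma adjusted p = 0.000581) and 0.05 with sgDDX6.2 (limma adjusted p = 0.49).

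Of 4 other N6 methyltransferase genes, 3 fell, beside 66.7% of all genes called and 32.9% lower. PCIF1, which writes m6Am beside the cap, had 31.3 and 30.3 TPM in sgDDX6.1, 30.3 and 28.9 TPM in sgDDX6.2, and 39.0 and 39.3 TPM in sgNS (-0.37, limma adjusted p = 3.18e-05). TRMT112, an activator of several methyltransferases including METTL5, fell by 0.18 (limma adjusted p = 0.00298), and ZCCHC4, which methylates ribosomal RNA, had -0.17 (limma adjusted p = 0.0236, lost without sgDDX6.2 replicate 1, sgNS replicate 1 or sgNS replicate 2 at 0.0675, 0.0782 and 0.08, with no filter at 0.0558 and with the sgDDX6 libraries as a single group at 0.132). By guide, ZCCHC4 had -0.09 with sgDDX6.1 (limma adjusted p = 0.28) and -0.25 with sgDDX6.2 (limma adjusted p = 0.0067). METTL5, which methylates ribosomal RNA at another site, had 0.01 over both guides (limma adjusted p = 0.888).

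Of 8 other readers tested, 2 rose and 4 fell, 6 of 8 called beside 66.7% of all genes. The IGF2BP proteins, which stabilize bound mRNA, parted. IGF2BP3 had 21.6 and 18.4 TPM in sgDDX6.1, 26.8 and 27.6 TPM in sgDDX6.2, and 37.7 and 35.0 TPM in sgNS (-0.62, limma adjusted p = 5.5e-06), while IGF2BP2 had 104.6 and 99.9 TPM in sgDDX6.1, 118.0 and 122.4 TPM in sgDDX6.2, and 96.6 and 94.2 TPM in sgNS (0.21, limma adjusted p = 0.000466, lost with the 4 sgDDX6 libraries as a single group at 0.0758). IGF2BP3 fell further with sgDDX6.1, and IGF2BP2 was higher with sgDDX6.2. With sgDDX6.1 alone IGF2BP2 had 0.10 and did not pass the test (limma adjusted p = 0.0772). The nuclear proteins HNRNPA2B1 and RBMX, whose binding depends on the mark or on the RNA structure it loosens, had log2 fold changes of 0.32 (limma adjusted p = 4.69e-06) and -0.32 (limma adjusted p = 1.3e-05). Under quantile normalization HNRNPA2B1 had 0.1859 and kept its call.

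Among 6 partners of the readers, 1 rose and 2 fell, 3 of 6 called and so below the 66.7% of all genes. The splicing factors SRSF3 and SRSF10, which act with YTHDC1, had 0.12 (limma adjusted p = 0.00689, lost without sgNS replicate 2 at 0.0726 and with the sgDDX6 libraries as a single group at 0.184) and -0.29 (limma adjusted p = 0.000516). Under quantile normalization SRSF3 had 0.0776. By guide, SRSF3 had 0.20 with sgDDX6.1 (limma adjusted p = 0.000645) and 0.04 with sgDDX6.2 (limma adjusted p = 0.427). The exonuclease XRN1, a partner of YTHDC2, had -0.21 (limma adjusted p = 0.0103, lost without sgNS replicate 1 at 0.0837). The export receptor NXF1 had -0.04 (limma adjusted p = 0.419). CNOT1, the scaffold of CCR4-NOT that YTHDF2 contacts, singled out after its value was seen, had 0.00 (limma adjusted p = 0.919).

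In methyl donor supply, 3 of 4 genes fell and 1 rose over both guides, beside 66.7% of all genes called and 32.9% lower. Beside MAT2A these were MAT2B, its regulatory subunit, with -0.32 (limma adjusted p = 9.79e-05), and MTAP, which recycles methionine, with -0.21 (limma adjusted p = 0.00399, lost without sgNS replicate 1 at 0.0538 and with the sgDDX6 libraries as a single group at 0.13). AHCY, which clears the inhibitor S-adenosylhomocysteine, rose by 0.09 at the edge of the threshold (limma adjusted p = 0.0489), a call lost under 10 of 16 alternatives, among them without sgDDX6.1 replicate 2, sgDDX6.2 replicate 2, sgNS replicate 1 or sgNS replicate 2 (adjusted p = 0.103, 0.18, 0.281 and 0.0561). Under quantile normalization AHCY had 0.0348 (adjusted p = 0.433). By guide, 2 of the 4 genes were called with sgDDX6.1 and 3 with sgDDX6.2, beside 61.6% and 64.2% of all genes. MTAP had -0.08 with sgDDX6.1 (limma adjusted p = 0.292) and -0.35 with sgDDX6.2 (limma adjusted p = 0.000408). AHCY passed with neither guide alone (limma adjusted p = 0.126 with sgDDX6.1 and 0.0576 with sgDDX6.2).

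Transcripts that earlier leukemia work has tied to these factors as targets were spread widely. Of 15 genes tested, 4 rose and 6 fell, and this share called, 10 of 15, is that of all genes (66.7%). Their median log2 fold change was -0.01 and their median size of change 0.37, against 0.23 over all genes. The list was chosen with earlier results of these data known, and whether that choice raised this median was not tested. AXL was at 0.16 TPM or less in every library and was not tested, and LILRB4 was not analysed here. The strongest calls were all lower. GPT2, tied to IGF2BP2, had 6.50 and 7.09 TPM in sgDDX6.1, 6.31 and 6.14 TPM in sgDDX6.2, and 63.7 and 65.0 TPM in sgNS (-3.12). BCAT1, tied to METTL16, had 25.6 and 22.8 TPM in sgDDX6.1, 19.9 and 18.96 TPM in sgDDX6.2, and 84.4 and 80.3 TPM in sgNS (-1.88). SLC1A5, tied to IGF2BP2, and MYC, tied to several writers, readers and erasers, had -0.76 and -0.77. The limma adjusted p of these 4 was at most 7.92e-09. Beside them, the factors named had log2 fold changes of 0.21 (IGF2BP2) and -0.0049 (METTL16). Methylation of these transcripts was not measured.

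**Figure D3:**
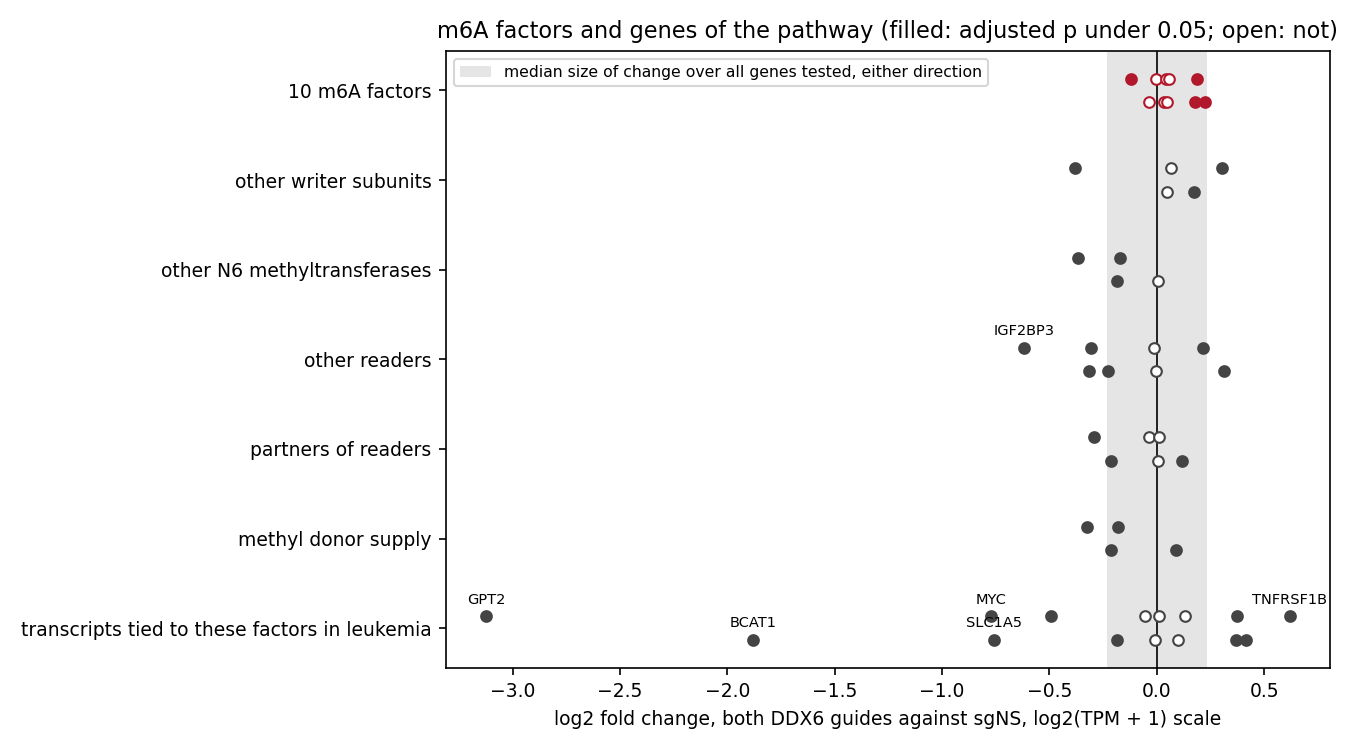
Log2 fold change over both DDX6 guides against sgNS on the log2(TPM + 1) scale (horizontal axis) for the 10 m6A factors and 6 lists of pathway genes; each point is a gene, filled where the adjusted p was under 0.05 and open where it was not, names mark changes of at least 0.5, and the grey band spans the median size of change over all genes tested (0.23) in either direction. All 10 factors lie inside the band, while IGF2BP3 (-0.62) and GPT2 (-3.12) lie far outside it.

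For the 3 factors with the greatest change over both guides, the genes with the nearest profile over the 6 libraries were listed by the distance between centred log2(TPM + 1) profiles. CS, MTOR and PTBP1 were nearest to ALKBH5 (distances 0.017, 0.0231 and 0.0251), STK38, RELL2 and RHEB to FTO (0.0364, 0.0374 and 0.0408), and HERC2, SRRM2 and POLR3A to YTHDF1 (0.0371, 0.0434 and 0.0451). These distances over 3 groups of 2 libraries describe likeness only.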

How the data were processed

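Poly(A)+ RNA of Mono-mac-6 cells was sequenced in 6 libraries, 2 each of sgDDX6.1, sgDDX6.2 and sgNS. The table the authors deposited gives TPM per gene symbol and library, each column summing to 1000000. RSEM (1.2.31) and the build GRCh38 are named per the submitters' processing notes. The aligner, the annotation and any strand setting are not given in the sources used. TPM keeps no read depth, so no interval or limit from counts was given, and a value is a share of its library. RSEM divides reads among similar genes, and WTAP, YTHDF1, YTHDF2 and FTO each have a pseudogene in GENCODE release 29.

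Levels were taken as log2(TPM + 1) for the 11151 genes that reached 1 TPM in 2 or more libraries. A model with 3 group means was fitted with limma 3.58.1 (R 4.3.3, variance trend, 3 residual degrees of freedom), two-sided, with Benjamini-Hochberg adjustment over all genes tested and a threshold of 0.05. The procedure was also run on simulated data with few changed genes, the same shift for both guides and independent noise. In these data 66.7% of genes were called over both guides and the guides differed for 35.6%. That run therefore gives no error rate for them. Within-library ratios were compared by exact permutation tests.

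The members and lists were chosen with earlier results of these data known. All 10 members and DDX6 are named. From each pathway list up to 4 genes of lowest adjusted p over both guides are named, with genes not tested. CNOT1, SOD2, RPGRIP1L, TOX4, GGCX and the single marker genes were added after their values were seen. Alternatives were pseudocounts of 0.1 and 5, other filters, quantile normalization, median centring, limma settings, the replicate block, fits to fewer or merged groups, and leaving out each library.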

Additional observations from a re-analysis of the deposited data

Results flagged for a closer look

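In the test of the difference between the 2 DDX6 guides, the effects against sgNS differed for 3 of the 10 m6A factors, beside 35.6% of all genes tested. The call was a limma adjusted p under 0.05, and differences are sgDDX6.2 minus sgDDX6.1 on the log2 scale. All 3 calls depended on single libraries, and those of WTAP and ALKBH5 also on the processing. YTHDF1 differed by -0.20 (0.08 with sgDDX6.2, 0.27 with sgDDX6.1), WTAP by -0.16 (-0.20 with sgDDX6.2, -0.04 with sgDDX6.1) and ALKBH5 by -0.13 (0.16 with sgDDX6.2, 0.29 with sgDDX6.1).

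Of the 24 pathway genes chosen by adjusted p, 13 differed in the same test. These 24 were chosen from the same fit. Over the full lists 20 of 42 genes differed, 2 higher and 18 lower with sgDDX6.2. Of all genes tested, 35.6% differed, 17% higher and 18.6% lower. For the pathway genes, the differences between the guides were not examined under the alternatives. Among writer subunits and methyltransferases the difference was -0.25 for CBLL1, -0.26 for RBM15B, -0.18 for RBM15 and -0.14 for METTL5. Among readers and their partners it was 0.43 for IGF2BP3 (-0.40 with sgDDX6.2, -0.83 with sgDDX6.1), 0.23 for IGF2BP2 (0.33 with sgDDX6.2, 0.10 with sgDDX6.1), -0.13 for HNRNPA2B1, -0.19 for RBMX and -0.16 for SRSF3. In methyl donor supply it was -0.13 for MAT2A and -0.27 for MTAP. Among the transcripts tied to these factors it was -0.30 for BCAT1 and -0.51 for MYC (-1.03 with sgDDX6.2, -0.52 with sgDDX6.1).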

How the results depend on the processing

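Over both guides, ALKBH5 and FTO kept their rise and their call under all 16 alternatives (0.21 to 0.24 and 0.16 to 0.21), and YTHDF1 under 15. The count of the 10 factors called over both guides fell to 2 with the 4 sgDDX6 libraries as a single group. That alternative counts the difference between the guides as spread. Over all genes, the count over both guides was 5212 to 7859 under the alternatives, in place of 7434. For sgDDX6.2 against sgNS, fits without single libraries left 1 library in a group. In them the log2 fold change was 0.1439 to 0.1712 for ALKBH5, 0.196 to 0.2356 for FTO and -0.2419 to -0.1606 for WTAP. In some of these fits the count over all genes fell, and so did the count of the 10 factors. For sgDDX6.2 against sgDDX6.1 it was 1 under quantile normalization, 1 without the variance trend and 0 to 2 without single libraries, where the count over all genes was 2252 to 4121 in place of 3971; the cause was not tested. The METTL3 to METTL14 difference was 0.0516 with sgDDX6.1 alone and -0.0942 to 0.0704 without single libraries.

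Signs that turned belonged to values near 0, none of which passed the test as reported or in the setting that turned it. They were METTL16 (0.0271), YTHDF2 (-0.0236) and METTL5 (-0.0303) over both guides under quantile normalization, and METTL16 (2e-04) under median centring. Without single libraries, over both guides METTL3 ranged from -0.0018 to 0.0906, METTL16 from -0.0271 to 0.0172, YTHDF3 from -0.0954 to 0.025 and METTL5 from -0.0051 to 0.0177. With sgDDX6.1, METTL14 ranged from -0.0356 to 0.1103 and YTHDF3 from -0.0385 to 0.0871. With sgDDX6.2, METTL3 ranged from -0.0459 to 0.0465, YTHDF2 from -0.0436 to 0.0084 and YTHDC1 from -0.0385 to 0.0459. Between the guides METTL14 ranged from -0.0368 to 0.1091.

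Same-numbered libraries deviated together with correlations of 0.04 (sgDDX6.1 with sgDDX6.2), 0.262 (sgDDX6.1 with sgNS) and 0.098 (sgDDX6.2 with sgNS). The main fit did not take the numbers as pairs. METTL14, WTAP and METTL16 were nevertheless higher in replicate 1 than in replicate 2 of every group, while the other factors had no shared order. Fitting a replicate block raised the count over all 11151 genes from 7434 to 7859 over both guides and from 3971 to 4809 between the guides. That count rose from 6866 to 7402 with sgDDX6.1 and from 7160 to 7650 with sgDDX6.2. Beside these, 4 of the 10 factors were called over both guides, 4 with sgDDX6.1, 3 with sgDDX6.2 and 4 between the guides. YTHDF2 was added with sgDDX6.1 (limma adjusted p = 0.0478) and between the guides (limma adjusted p = 0.0301). Depth is unknown, so it is not known how far it limits the low members.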
